A study of Gallus gallus with 2 samples.

Results

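Chromosome 2 of the chicken carried 2663 of the 21993 long non-coding RNA (lncRNA) transcripts in the deposited table, 12.1% of them. They were chosen by the chromosome name alone, exactly chr2, so that fragments assigned to the chromosome but not placed on it were left out. No measured value entered that rule, though the chromosome was chosen with earlier results of these data known. The tissue was breast muscle of hens aged 7 weeks, from the fast-growing strain White Recessive Rock (WRR) and from Xing Hua (XH), a slow-growing native strain of China. Per the labels, body weights were 625.3 ± 12.0 g for WRR and 328.5 ± 10.6 g for XH, with the kind of error not named. Both strains were kept in the same room, in separate cages, on the same feed. RNA of 4 birds of a strain was mixed in equal amounts, depleted of ribosomal RNA and made into 1 library with strand marking by dUTP. Each strain is thus 1 pool without a replicate. The spread between birds is unknown, so no p-value appears, and the differences below are between these 2 libraries.

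Long non-coding RNAs are transcripts that are not read into protein. Some act on chromatin or on transcription near the place where they are made, others bind proteins or microRNAs elsewhere in the cell, and in skeletal muscle several are known to take part in the differentiation of myoblasts. Ribosomal depletion keeps RNA without a poly(A) tail, so pieces of unspliced precursor RNA can be sequenced beside finished transcripts. Chromosome 2 belongs to the macrochromosomes, the few large chromosomes of birds, on which genes lie farther apart than on the many microchromosomes. The table pairs no transcript with a gene name. The labelled tissue therefore could not be checked against muscle markers, and transcripts are named by their position on chromosome 2 (galGal4), counted from 1.

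The deposited counts are uniquely mapped reads and are not scaled. The authors' levels are scaled to totals of 9.44 M for WRR and 7.71 M for XH, and what these totals count is not stated. On chromosome 2 the listed transcripts held 134174 reads in WRR and 191278 in XH. The median transcript had 19 reads in WRR and 28 in XH, so that most single values rest on few reads. The transcripts were 201 to 15066 bases long, with a median of 864. For 77 (2.89%) the genomic interval was longer than the transcript, as in a spliced RNA; these are called gapped. The table gives no strand, so a transcript cannot be separated from an antisense partner that overlaps it.

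Listed transcripts were spread unevenly along the chromosome. Chromosome 2 held 17.9 of them per Mb, against 19.7 on chromosome 1 and 22.4 on chromosome 3. Their intervals covered 2.61% of its bases, against 2.40% of chromosome 1 and 3.01% of chromosome 3. The 2663 intervals formed 2406 groups that do not overlap. The gap from one group to the next had a median of 1570.5 bp, 1044 gaps were at most 1 kb and 19 were at least 1 Mb. Short distances and wide empty stretches thus lay side by side.

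Divided into 149 bins of 1 Mb by the midpoint of each interval and numbered from the start of the chromosome, the bins held a median of 14 transcripts, with quartiles of 7 and 26. No transcript fell in 13 bins. The 16 bins with at least 40 transcripts held 879 of them, or 33.0%. Bin 111 had the most, 85 transcripts over 11.4% of its bases, followed by bin 30 with 73, bin 38 with 72, bin 11 with 66 and bin 118 with 61. The longest stretch without a listed transcript ran over 6.11 Mb from 69237384 to 75346418. The next were 2.25 Mb from 131792025 to 134043183 and 1.96 Mb from 142783798 to 144742200.

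**Figure D1:**
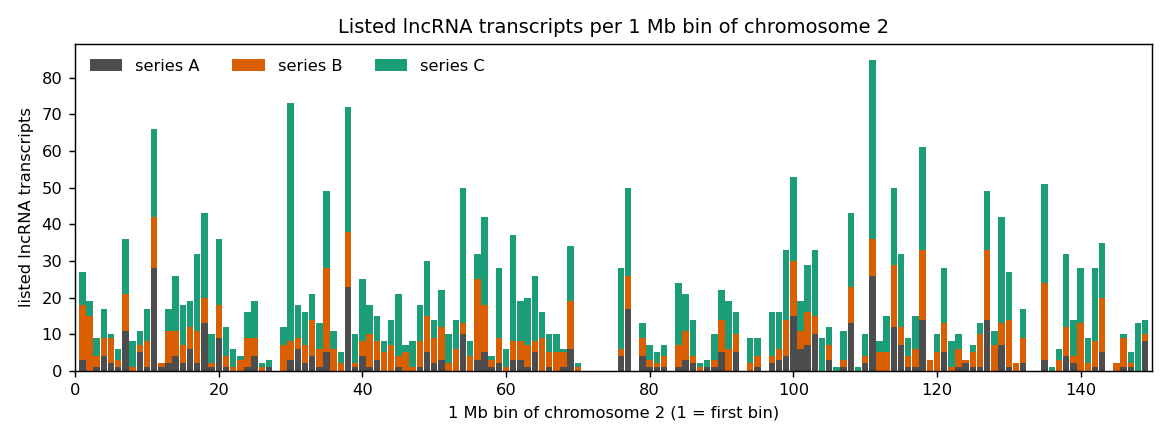
Number of listed lncRNA transcripts (vertical axis) in each 1 Mb bin of chromosome 2 (horizontal axis, bin number), with the bar divided by numbering series A, B and C. Bin 111 reaches 85 transcripts, bin 30 consists mostly of series C (65 of 73), and bins 71 to 75 are empty.

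The bars are divided by a property of the identifiers that bears on every ratio below. Read by serial number, the identifiers follow the chromosomes in order over 2 long runs, from 3659 to 11941 (series B) and from 11942 to 22903 (series C), while numbers 1 to 3658 (series A) follow no such order. The sources used here do not say what the series are. On chromosome 2, series A held 442 transcripts, series B 801 and series C 1420. Series C made up 53.3% of chromosome 2 and 47.6% of the rest of the table.

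Levels were low and, for most transcripts, higher in XH. The median was 2.25 RPKM (reads per kilobase of length and M reads of the total) in WRR, with quartiles of 1.05 and 4.26, and 4.50 RPKM in XH, with quartiles of 2.92 and 7.87. A level of 10 RPKM or more was found for 217 transcripts in WRR against 494 in XH, and a level of 100 RPKM or more for 8 in WRR against 12 in XH. The reads covered a median of 74.0% of a transcript's length in WRR and 89.9% in XH. In the rest of the table the median levels were 2.70 RPKM in WRR against 4.48 RPKM in XH, so that the lower median of chromosome 2 was found in WRR. This was shared by the other large chromosomes. Medians were 2.37 RPKM in WRR against 4.49 RPKM in XH on chromosome 1, and 2.27 RPKM in WRR against 4.49 RPKM in XH on chromosome 3. The 10 most read transcripts of chromosome 2 held 18.7% of its reads in WRR and 10.4% in XH.

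The series differed in level within each library. Series A had medians of 3.28 RPKM in WRR against 5.35 RPKM in XH. Series B had 4.22 RPKM in WRR against 4.47 RPKM in XH, and its reads covered a median of 92.5% of the length in WRR and 83.0% in XH. Series C had 1.22 RPKM in WRR against 4.27 RPKM in XH, with coverage of 54.3% in WRR and 91.1% in XH. The XH level was thus much alike in all series, and the WRR level of series C stood apart. Transcripts without a read in WRR, shown by a dash in the table, numbered 81 (3.04%, against 2.47% of all listed transcripts), of which 74 were in series C. Those without a read in XH numbered 35 (1.31%, against 1.35% of all), of which 32 were in series B. Over the table, 504 of 544 dashes in WRR were in series C and 254 of 296 dashes in XH in series B. Chromosome 2 was thus near the table in both respects.

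The comparison of the libraries asks which lncRNAs of breast muscle differ between a fast-growing and a slow-growing strain. It was made on log2((WRR RPKM + 0.1) / (XH RPKM + 0.1)), where values above 0 mean more in WRR, for the 2614 transcripts of chromosome 2 that reached 0.5 RPKM in at least 1 library. The pseudocount makes changes of low transcripts look smaller than they are. Of these, 169 (6.47%) were at least 2-fold higher in WRR, against 9.45% of all listed transcripts past the filter. At least 2-fold higher in XH were 1414 (54.1%), against 46.9% of all, leaving 1031 in between. Over chromosome 2 the median log2 ratio was -1.11, with quartiles of -1.90 and -0.35, and 448 transcripts (17.1%) lay above 0. In the rest of the table it was -0.88, with quartiles of -1.69 and -0.0076, on chromosome 1 -1.04 and on chromosome 3 -1.09. Chromosome 2 thus lay below the rest of the table and close to the other large chromosomes, a difference of medians for which the design allows no test. In bulk tissue, fewer cells of a type and less RNA per cell cannot be told apart.

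Much of this direction depends on how the libraries are scaled to each other. The median of all listed transcripts was itself -0.92, and relative to it the median of chromosome 2 was -0.20. On that relative scale, 413 of the 2614 transcripts of chromosome 2 were at least 2-fold higher in WRR, against 4813 of all 21625 listed transcripts past the filter (22.3%). At least 2-fold higher in XH were 642 of the 2614, against 4396 of all 21625 (20.3%). Chromosome 2 thus had the smaller share toward WRR and the larger share toward XH on this scale too. WRR then made up 39.1% of the transcripts past 2-fold, in place of 10.7% as deposited. The difference of -0.23 between the medians of chromosome 2 and the rest of the table is not touched by such a shift.

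Within the numbering series the libraries compared as follows. In series A the median of chromosome 2 was -0.68, with 7 transcripts (1.59%) past 2-fold toward WRR, against 5.15% of all listed transcripts of the series, and 138 (31.3%) past 2-fold toward XH, against 26.6%. In series B it was -0.070, with 159 (20.6%) toward WRR, against 23.6%, and 141 (18.3%) toward XH, against 15.9%. In series C it was -1.72, with 3 (0.214%) toward WRR, against 0.764%, and 1135 (81.0%) toward XH, against 76.1%. The direction toward XH was therefore absent as a majority in series B, where the counts of the directions were near each other. For the rest of the table, series A, B and C had medians of -0.54, 0.077 and -1.62, so that chromosome 2 lay 0.10 to 0.15 lower in each. In the same order, chromosome 1 had medians of -0.66, -0.12 and -1.71, and chromosome 3 of -0.68, 0.053 and -1.68. Medians below those of the rest of the table were thus not particular to chromosome 2.

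**Figure D2:**
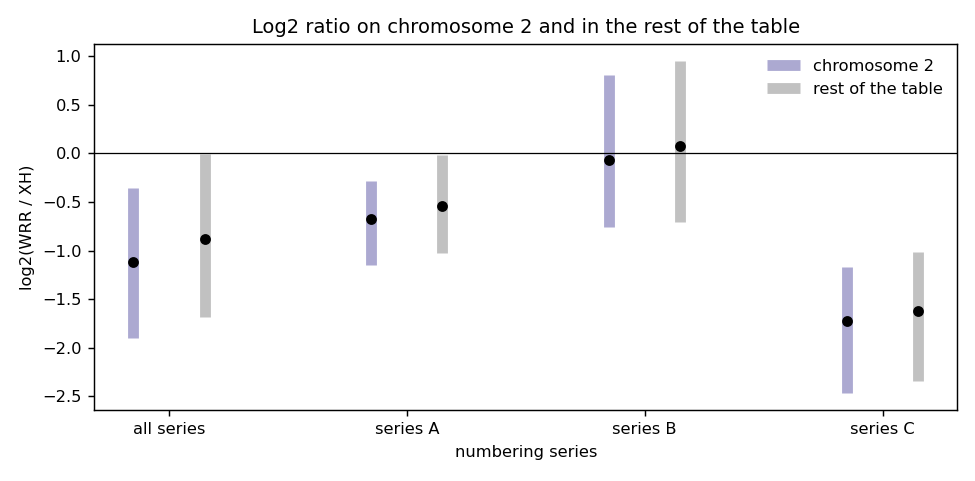
Median (point) and quartiles (bar) of log2(WRR / XH) on chromosome 2 (blue, left of each pair) and in the rest of the table (grey, right), for all transcripts past the filter and for each numbering series. Chromosome 2 lies slightly below the rest in every pair, while the series lie far apart, at -0.68, -0.070 and -1.72 on chromosome 2.

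Across the 2547 transcripts of chromosome 2 read in both libraries, the log2 levels gave r = 0.63 (Pearson) and rho = 0.57 (Spearman). These are transcripts of 1 pair of libraries and not replicates. Summed over the chromosome, reads per total were 0.573-fold in WRR relative to XH (exact 95% interval 0.569 to 0.577), against 0.826-fold in the rest of the table. The interval, like all those below, is the exact binomial one of Clopper and Pearson. It covers counting error only and leaves out the spread between birds. It also takes each read as a separate molecule, which cannot be checked without molecular identifiers, so it may be too narrow. On chromosome 1 the sum was 1.36-fold, with 73.1% of its WRR reads in 10 transcripts, and on chromosome 3 it was 0.562-fold. Without the 2 transcripts of the highest mean level in each, the sum was 0.539-fold on chromosome 2 and 0.667-fold in the rest of the table. Leaving chromosome 1 out, the rest of the table stood at 0.669-fold.

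**Figure D3:**
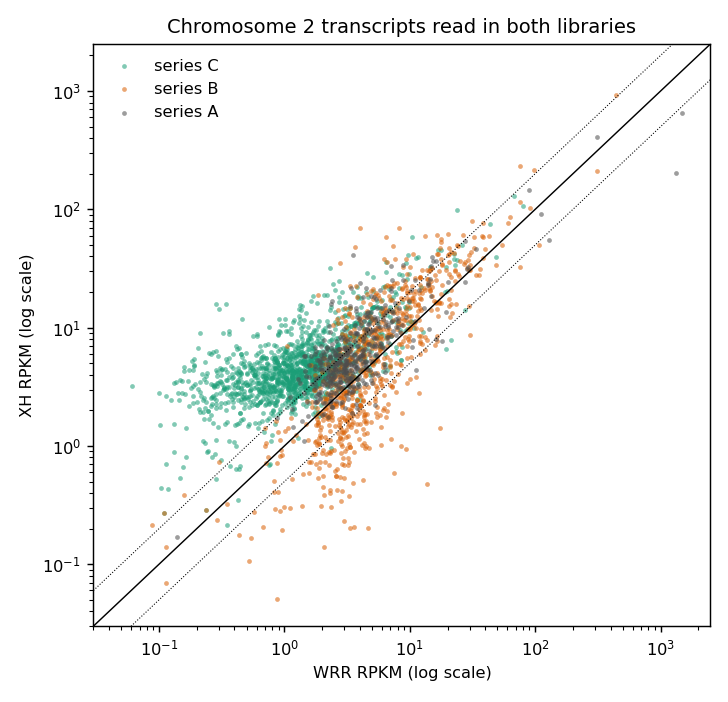
Level of each chromosome 2 transcript read in both libraries, WRR RPKM on the horizontal and XH RPKM on the vertical axis (both logarithmic), coloured by numbering series; the solid line marks equal levels and the dotted lines 2-fold. Series C lies mostly above the upper dotted line, series B on both sides, and the 2 most abundant transcripts lie at the far right, below the line of equal levels.

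The direction along the chromosome was then followed in the 94 bins with at least 10 transcripts past the filter. The median log2 ratio lay above 0 in 3 of them and at -1 or lower in 57, and it ranged from -3.07 to 0.24. The median XH level was the higher one in 88 bins and the median XH coverage in 87. Summed reads per total were higher in WRR in 4 of the 94 bins and lower by 2-fold or more in 31. Over long segments of the chromosome the values hardly moved. The median was -1.14 from 0 to 50 Mb, -1.18 from 50 to 100 Mb and -1.02 from 100 Mb on, with 19.4, 15.5 and 18.9 transcripts per Mb. The lower levels in WRR were thus not confined to a part of the chromosome.

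Bins with more of series C had lower medians, with r = -0.55 and rho = -0.56 over the 94 bins, a description of bins that share both libraries. With each transcript taken relative to the median of its series over the table, 36 bins lay above 0 and 58 below, and the range narrowed to -1.43 to 1.49. Bin 142 had the highest value on that scale, 1.49. Its median as deposited was 0.11, with 20 of its 28 transcripts in series C, 1495 reads in WRR and 1182 in XH. Bin 44 had the highest median as deposited, 0.24, from 7 transcripts of series B and 7 of series C, with quartiles as wide as -1.82 and 1.08. Bins 146, 149 and 123 followed with medians of 0.0068, -0.27 and -0.36.

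At the other end, bin 148 had the lowest median, -3.07. All of its 13 transcripts were in series C, with 46 reads in WRR and 250 in XH, a depth at which single folds are poorly known. Bin 130 had a median of -2.71 with far more reads, 748 in WRR and 4161 in XH, 0.147-fold in WRR relative to XH (exact 95% interval 0.136 to 0.159). Of these reads, 435 in WRR and 3639 in XH belong to 10 transcripts between 129040553 and 129061050, described below as a stretch. Of the bin's 27 transcripts, 13 were in series B and 13 in series C, and relative to the series its median was still -1.42. Bins 107, 97 and 30 followed at -1.90, -1.87 and -1.74. Of these, bin 30 was close to the level of its series, at -0.14 after centring, since 65 of its 73 transcripts were in series C.

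**Figure D4:**
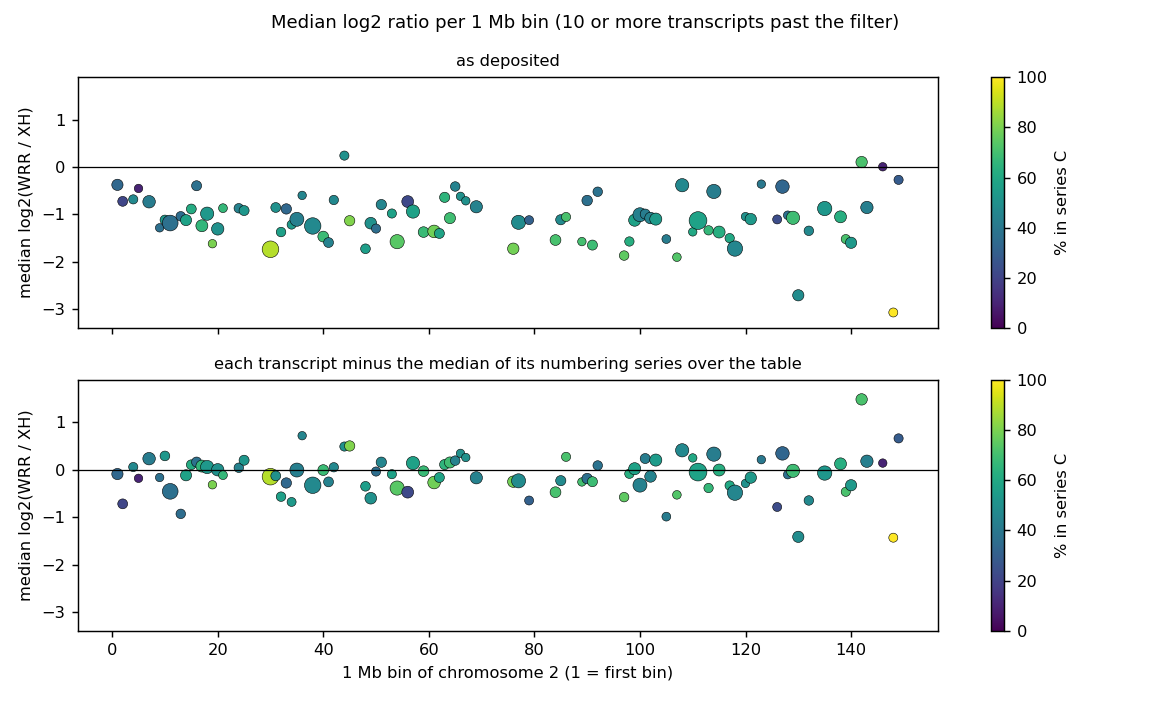
Median log2(WRR / XH) of each 1 Mb bin with at least 10 transcripts past the filter, against the bin number; point size follows the number of transcripts and colour the percent in series C. In the upper panel (as deposited) 3 of 94 bins lie above 0; in the lower panel (each transcript minus the table-wide median of its series) most bins lie near 0, while bin 142 (1.49), bin 148 (-1.43) and bin 130 (-1.42) stand out.

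The bins with the most reads were in part those with the most transcripts, bins 111 and 11 in both libraries and bin 118 in XH. Bin 108 held the most WRR reads, 10842 in WRR against 4428 in XH, 2.00-fold in WRR relative to XH (1.93 to 2.07). It was the bin of the 2 most abundant transcripts, and without them its reads were 1281 in WRR and 2097 in XH, 0.499-fold (0.465 to 0.535). The direction of the sum thus rests on 2 of its 43 transcripts, and its median log2 ratio was -0.38. In WRR bins 111, 11, 77 and 103 followed. In XH bin 118 held the most, 3558 reads in WRR against 9384 in XH, followed by bins 11, 77, 111 and 100.

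The most abundant transcript of the chromosome was 342 bases long, at 107604709 to 107605050. It had 1470 RPKM in WRR (4748 reads) and 656 RPKM in XH (1732 reads), 2.24-fold higher in WRR (2.12 to 2.37). A 386-base transcript 1 kb further on, at 107606110 to 107606495, had 1320 RPKM in WRR (4813 reads) and 201 RPKM in XH (599 reads), 6.56-fold higher in WRR (6.03 to 7.16). Coverage of its length was 99.7% in WRR but 64.5% in XH. Both belong to series A, in which a ratio above 2 was rare.

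Transcripts near this pair had a like direction in series A and B. The transcript of 2355 bases at 107601286 to 107603640 had 211 reads in WRR and 62 in XH, 2.78-fold higher in WRR (2.09 to 3.75). The transcript of 384 bases at 107603898 to 107604281 had 66 reads in WRR and 23 in XH, 2.34-fold higher in WRR (1.44 to 3.95). The transcript of 1016 bases at 107608828 to 107609843 had 37 reads in WRR and 33 in XH, 0.916-fold in WRR relative to XH (0.557 to 1.51), an interval that holds 1. With the pair itself, these were all 5 listed transcripts within 50 kb. At least 2-fold higher in WRR were 4 of 5, the pair among them, all in series A and B, and the 1 of series C was not. Over the table, 5.15% of series A and 23.6% of series B were that much higher in WRR. Together the 5 had 9875 reads in WRR, or 7.36% of the chromosome's reads, and 2449 in XH, or 1.28%. That is 3.29-fold higher in WRR (3.15 to 3.44), and the pair alone held 9561 of these reads in WRR and 2331 in XH.

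Of the other 6 of the 8 highest mean levels, 5 were higher in XH. The transcript of 204 bases at 2105430 to 2105633 had 438 RPKM in WRR against 923 RPKM in XH, a level 2.11-fold higher in XH (1.93 to 2.30). The transcript of 598 bases at 4545183 to 4545780 had 75.1 RPKM in WRR against 231 RPKM in XH, a level 3.08-fold higher in XH (2.75 to 3.45). The transcript of 573 bases at 113046959 to 113047531 had 97.0 RPKM in WRR against 217 RPKM in XH, a level 2.23-fold higher in XH (2.01 to 2.49). When centred on the median of the whole table, these log2 ratios were -0.16, -0.71 and -0.24, so that none of the 3 was past 2-fold on that scale. Smaller differences were found for the rest. The transcript of 713 bases at 102180765 to 102181477 had 308 RPKM in WRR against 406 RPKM in XH, and the transcript of 1955 bases at 98633430 to 98635406 had 90.03 RPKM in WRR against 145 RPKM in XH. Both turn to the WRR side relative to that median, with log2 ratios of 0.52 and 0.23. The transcript of 253 bases at 19564132 to 19564384 had 311 RPKM in WRR against 210 RPKM in XH, 1.48-fold higher in WRR (1.31 to 1.67), with coverage of 99.6% in WRR and 58.5% in XH.

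Transcripts with many reads in both libraries give the firmest ratios. Asking for 100 reads in each library leaves out large ratios that rest on many reads in 1 library and fewer in the other. An example is the transcript at 117754903 to 117798160, with 74 reads in WRR and 426 in XH, 7.05-fold higher in XH. At least 100 reads in each library were found for 229 transcripts, which held 58.5% of the chromosome's reads in WRR and 50.5% in XH. Series C was far less represented among them than on the chromosome, with 24 transcripts against 96 of series A and 109 of series B. Of the 229, 20 were higher in WRR and 209 in XH. Their median log2 of the RPKM ratio was -0.75, against -0.66 for all such transcripts of the table. By 2-fold or more, 4 (1.75%) were higher in WRR, against 3.55% of the 2059 such transcripts of the table, and 81 (35.4%) were higher in XH, against 27.5%. Beside the abundant pair of bin 108, the 4 included the transcript of 531 bases at 148239983 to 148240513, with 129 RPKM in WRR against 55.4 RPKM in XH, 2.33-fold higher in WRR (2.00 to 2.72). The remaining transcript was a gapped one of 455 bases whose interval runs from 81123862 to 81165300, with 108 RPKM in WRR against 50.4 RPKM in XH, 2.14-fold higher in WRR (1.79 to 2.56). The next in order, at 706532 to 708573, was 1.53-fold higher in WRR (1.20 to 1.95).

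Of the 5 lowest ratios among deeply read transcripts, 3 lay within 22 kb of each other in bin 118. The transcript of 3634 bases at 117774652 to 117778285 had 7.05 RPKM in WRR against 33.3 RPKM in XH, a level 4.72-fold higher in XH (4.09 to 5.46). Those at 117759134 to 117761556 and at 117756762 to 117758379 were 4.62-fold (3.85 to 5.58) and 3.74-fold higher in XH (3.09 to 4.55). The transcript of 851 bases at 129054834 to 129055684 had 13.2 RPKM in WRR against 59.9 RPKM in XH, a level 4.54-fold higher in XH (3.65 to 5.68). The transcript of 470 bases at 113046394 to 113046863 had 23.7 RPKM in WRR against 98.5 RPKM in XH, a level 4.16-fold higher in XH (3.34 to 5.22). It ends shortly before the abundant transcript at 113046959, which was also higher in XH. The transcripts at 117759134, 117756762 and 113046394 are in series C. Relative to the series their log2 ratios were -0.55, -0.26 and -0.42, near its usual level. Centred on the whole table, the one at 117756762 was within 2-fold, at -0.98. Those at 117774652 (series A) and 129054834 (series B) stayed lower relative to their series, at -1.66 and -2.23.

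The largest ratios rested on few reads. The 8 highest log2 ratios among transcripts read in both libraries had 16 to 49 reads in WRR and 1 to 4 in XH, and all were in series B. Their ratios without the pseudocount ran from 10.01 to 28.6, with lower interval bounds of 2.03 to 4.81. Among them, the transcript of 552 bases at 90475989 to 90476540 had 49 reads in WRR against 4 in XH, a ratio of 10.01 (3.67 to 38.2). Another of 272 bases at 50485013 to 50485284 had 45 reads in WRR against 3 in XH, a ratio of 12.3 (3.93 to 61.6). The size of each is known only within such limits.

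The 8 lowest log2 ratios were all in series C, with 1 or 2 reads in WRR and 21 to 76 in XH. Their ratios ran from 25.7 to 55.1 in favour of XH, with lower bounds of 4.13 to 12.4. The transcript of 623 bases at 138991642 to 138992264 had 0.340 RPKM in WRR (2 reads) and 15.8 RPKM in XH (76 reads), 46.5-fold higher in XH (12.4 to 391). Next to it, the transcript of 349 bases at 138990631 to 138990979 had 1 WRR read and 39 XH reads, 47.7-fold higher in XH (8.08 to 1933). A longer one of 1725 bases at 129055939 to 129057663 had 1 read in WRR and 43 in XH, 52.6-fold higher in XH (8.96 to 2127). These 3 lie in the stretches with the lowest medians, described below.

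Transcripts read in a single library had at most 77 reads there in WRR and 107 in XH. The transcript with 77 WRR reads spans 55910590 to 55937126. After it came the transcript of 1138 bases at 32393048 to 32394185, with 27 reads in WRR and none in XH, which is at least 7.35-fold more in WRR when XH is set to a floor of 3 reads per library. Those at 121334470 to 121335353 and at 60406275 to 60406796 had 24 and 18 reads in WRR, at least 6.54 and 4.90 times the level that the floor gives for XH. In the other direction, the transcript of 986 bases at 129049798 to 129050783 had a dash in WRR and 107 reads in XH over 47.6% of its length, at least 43.7-fold higher in XH against that floor. The transcripts at 99227488 to 99228704, 112059743 to 112060647 and 37218632 to 37219331 had 39, 36 and 33 reads in XH, at least 15.9, 14.7 and 13.5 times the level that the floor gives for WRR. The exact 95% intervals start somewhat lower than these floor values, from 34.9 in place of 43.7 for the transcript at 129049798 and from 5.58 in place of 7.35 for the one at 32393048. A dash in WRR stood against a median of 14 reads in XH, and in 60 of 81 such transcripts the exact interval of the ratio lay above 1 toward XH. A dash in XH stood against a median of 4 reads in WRR, and the interval lay above 1 toward WRR in 14 of 35. The other dashes show no difference measurable at this depth. Such intervals were not counted for the rest of the table.

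Many of the named transcripts lay close to each other, which led to a description by stretches, a rule chosen after the data had been seen. A stretch is a run of at least 8 transcripts in which each starts within 10 kb of the furthest end before it. There were 68 on chromosome 2, of 7.19 to 311 kb, holding 1182 transcripts (44.4%). The share was 37.4% over the table, 48.0% on chromosome 1 and 49.4% on chromosome 3. The stretch medians ran from -3.66 to 1.08, with 4 above 0 and 43 at -1 or lower. Within a stretch the log2 ratios had a median interquartile range of 1.16, against 1.55 over the chromosome. The range over the chromosome also holds the distance between the series medians, and 8 of the stretches were of series C alone. The ranges are therefore not like for like, and no range centred on the series was computed. The largest had 65 transcripts at 37449080 to 37563592, 57 at 29247321 to 29362788, all of series C, and 53 at 10042699 to 10188961, with medians of -1.25, -1.81 and -1.22.

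The lowest median, -3.66, belonged to 10 transcripts between 129040553 and 129061050. They lie in bin 130 and hold most of its reads in both libraries, so the low sums of the bin and of this stretch are largely the same reads. All 10 were at least 2-fold higher in XH, with 435 reads in WRR and 3639 in XH, a level 10.2-fold higher in XH (9.27 to 11.3). Without the transcript of most reads it was 8.38-fold. The transcript of 2336 bases at 129040553 to 129042888 had 88 reads in WRR and 1264 in XH, 17.6-fold higher in XH. Its neighbour at 129042990 to 129044007 had 35 reads in WRR and 379 in XH, 13.3-fold higher in XH. Of the 10, 7 belong to series B, in which 15.9% of transcripts over the table were at least 2-fold higher in XH. The other 3 belong to series C, in which 76.1% were. The levels were 0 to 13.2 RPKM in WRR and 3.23 to 70.1 RPKM in XH. The ranges thus overlap only through 2 transcripts of series C, with 3.23 and 4.60 RPKM in XH. The transcripts at 129049092 and 129049798 overlap in position and may share reads.

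The second lowest, -3.13, belonged to 14 transcripts between 138981857 and 139013995, of which 13 were in series C and 13 were at least 2-fold higher in XH. Over the table, 76.1% of series C were at least 2-fold higher in XH, so that such a count is common in that series. With each of the 14 taken relative to its series, their median was -1.49. They had 97 reads in WRR and 506 in XH, a level 6.39-fold higher in XH (5.13 to 8.02). The exception was a gapped transcript of series B spanning 138981875 to 139007115, with 19 reads in WRR and 16 in XH. Stretches at 48341365 to 48375119, 60369900 to 60389280 and 53433533 to 53461882 followed with medians of -2.39, -2.13 and -2.07. The sum of the last rests on its most read transcript, being 1.503-fold higher in XH with it and 2.57-fold without it.

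Among stretches with at least 20 transcripts, the lowest median was -2.07, in 25 transcripts between 117754903 and 117819092. Here all series went the same way, with 9 of 9 transcripts of series A, 4 of 6 of series B and 9 of 10 of series C at least 2-fold higher in XH. Over the table these shares were 26.6%, 15.9% and 76.1%. The series medians were -2.24, -1.67 and -1.91, against -0.56, 0.057 and -1.64 over the table. Series C thus lay near its usual level, and series A and B below theirs. The reads were 2627 in WRR and 8075 in XH, 3.76-fold higher in XH (3.60 to 3.93). Within it, the transcript of 3104 bases at 117779215 to 117782318 had 99 reads in WRR and 516 in XH, a level 6.38-fold higher in XH (5.14 to 7.99). The transcript of 5637 bases at 117762621 to 117768257 had 463 reads in WRR and 1221 in XH, a level 3.23-fold higher in XH (2.90 to 3.60). A single transcript went against the others, at 117805714 to 117806622, with 20 reads in WRR and 3 in XH. In the first 41 kb of the stretch, listed transcripts follow each other closely and the transcript at 117754903 to 117798160 spans most of it, and whether they belong to 1 RNA was not tested.

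At the upper end, 12 transcripts between 126037547 and 126051691 had a median of 1.08. Of the 10 past the filter, 9 lay above 0, against 23.9% of all listed transcripts. Past 2-fold were 5 toward WRR, against 9.45% of all, and 1 toward XH, against 46.9%. The reads were 389 in WRR and 138 in XH, 2.30-fold higher in WRR (1.89 to 2.82). The transcript of 654 bases at 126045130 to 126045783 had 46 reads in WRR and 3 in XH, and the transcript of 1539 bases at 126041139 to 126042677 had 91 in WRR and 32 in XH. Of the 12, 9 are in series B, in which 23.6% of transcripts over the table passed 2-fold toward WRR. The median of series B over the table was 0.057, so a value above 0 is common in that series. The share of 23.9% pools all series. Relative to the series the median of the stretch was 1.34.

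The second highest median, 0.22, belonged to 16 transcripts between 141690978 and 141735564, all of series C, the series whose median over the table was -1.64. Each lay within 2-fold, from -0.69 to 0.67, and 10 of 16 lay above 0. The reads were 995 in WRR and 736 in XH, 1.10-fold higher in WRR (1.00 to 1.22). The transcript of 1901 bases at 141696575 to 141698475 had 7.91 RPKM in WRR against 6.07 RPKM in XH, and the transcript of 1368 bases at 141722186 to 141723553 had 8.75 RPKM in WRR against 6.92 RPKM in XH. The 7 other stretches made up of series C alone had medians of -2.13 to -0.87. These 16 transcripts lie in bin 142, which had the highest median relative to the series.

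**Figure D5:**
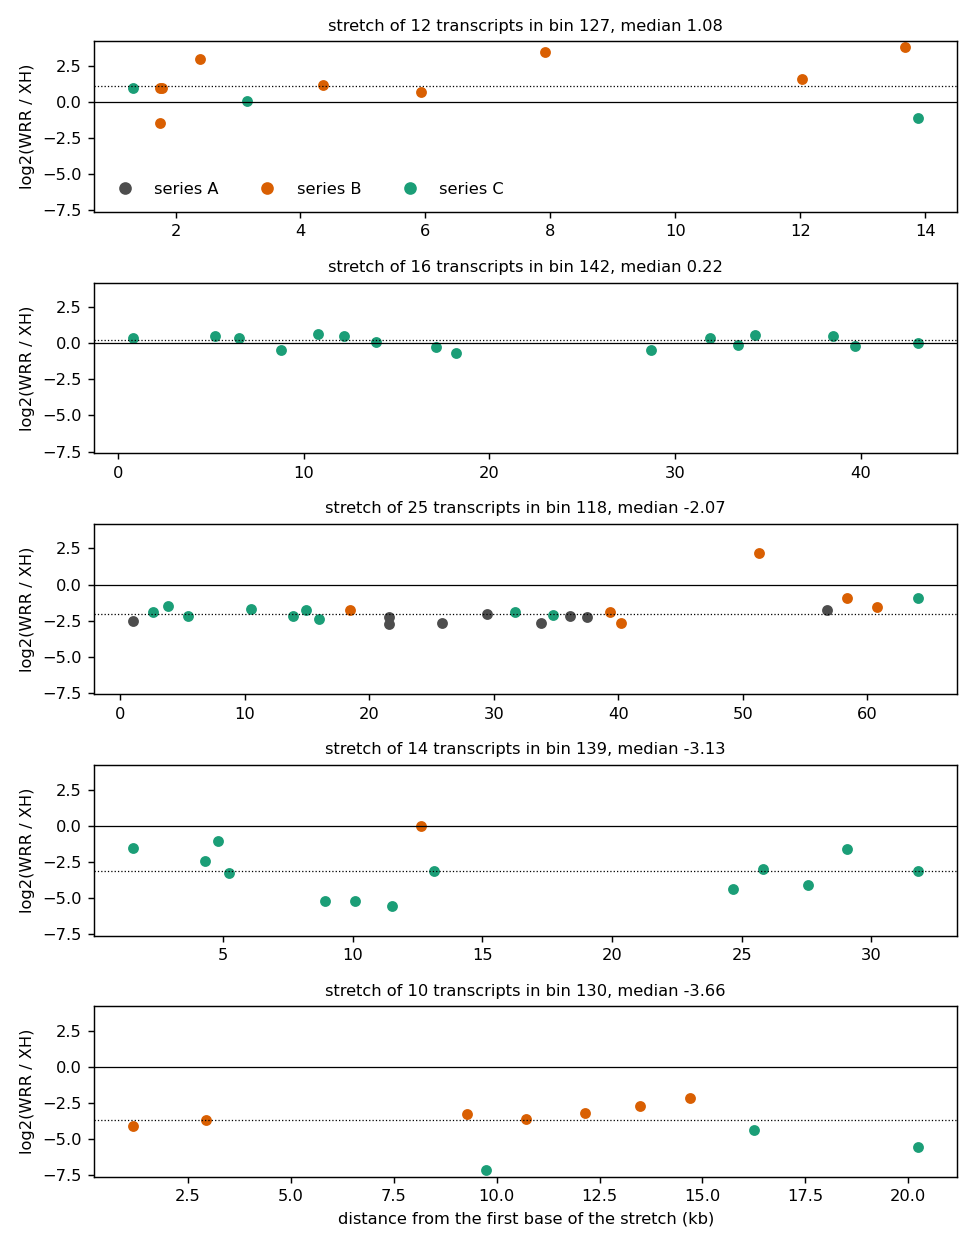
Log2(WRR / XH) of each transcript (vertical axis) against the distance of its midpoint from the first base of its stretch in kb (horizontal axis), for the 2 stretches with the highest medians (upper panels), the stretch of 25 transcripts with a median of -2.07 (middle) and the 2 stretches with the lowest medians (lower panels); the dotted line marks the median of those past the filter and colours the numbering series. The 25 transcripts of the middle panel lie below 0 with a single exception, in all series, and the 16 transcripts of series C in bin 142 lie close to 0.

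All 3 series were present in 46 stretches, which allows them to be compared at the same place. In 19 stretches with at least 3 transcripts of each series, the series B median was above that of series C in 18 and the order was B, A, C from the highest down in 16. The gap between B and C had a median of 1.67. In 3 of the 46 stretches the medians of all series were at -1 or lower, among them the one at 117754903 to 117819092, and in 0 were they all above 0. The gap between series therefore recurred within single places of the chromosome.

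Neighbouring transcripts resembled each other to a degree that fell with distance. Over 2613 pairs adjacent by position the log2 ratios correlated with r = 0.19 and rho = 0.20, and over the 1367 pairs of the same series, all series pooled, with r = 0.51 and rho = 0.56. That pooled value holds the distance between the series medians. With the medians taken out the same pairs gave r = 0.26, and adjacent transcripts without overlap inside series A, B and C gave r = 0.31, 0.20 and 0.18. With each transcript taken relative to its series, and intervals that overlap left out, r was 0.34 over 1071 pairs up to 1 kb apart and 0.24 over 635 pairs from 1 to 10 kb. It was 0.040 over 411 pairs from 10 to 100 kb and 0.0080 over 335 pairs farther apart. All pairs share both libraries, and pieces of the same RNA can be listed as separate transcripts, so these values describe the table and carry no p.

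The ratio by length ran differently in the pooled transcripts and within the series. Past the filter, the pooled median log2 ratio of the 463 transcripts under 500 bases was -1.33, of the 1888 from 500 to below 2000 bases -1.10 and of the 263 of 2000 bases or more -0.999. In series A these medians were 0.43, -0.59 and -0.93, over 15, 271 and 155 transcripts, and in series B 0.059, -0.032 and -0.72, over 157, 565 and 50. In series C they were -2.02, -1.68 and -1.625, over 291, 1052 and 58. Longer transcripts were thus lower in series A and B, while series C was slightly higher, like the pooled medians. Gapped transcripts had a median of -0.36 over 70 past the filter, against -1.13 over 2544 others. In series B these medians were 0.69 for 39 gapped transcripts and -0.11 for 733 others, in series A -1.05 and -0.67 for 11 and 430, and in series C -1.69 and -1.72 for 20 and 1381. The higher ratio of gapped transcripts was thus seen in series B and not in the other two. The longest transcript, 15066 bases at 76503446 to 76518511, had 4.35 RPKM in WRR (619 reads) and 11.4 RPKM in XH (1328 reads), 2.63-fold higher in XH (2.39 to 2.89). The longest interval, 264999 bp from 53071082 to 53336080, belongs to a 5288-base transcript with 7.77 RPKM in WRR against 8.70 RPKM in XH, 0.893-fold (0.771 to 1.03), an interval that holds 1.

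Coverage followed the number of reads. In WRR, transcripts with 1 to 9 reads had a median coverage of 38.9%, those with 10 to 29 reads 76.6%, those with 30 to 99 reads 89.4% and those with at least 100 reads 96.1%. In XH these medians were 34.8%, 87.5%, 92.7% and 97.2%. At 10 to 29 reads the series differed in opposite ways. Series B had 89.1% in WRR and 72.0% in XH, while series C had 64.2% in WRR and 89.6% in XH, at median lengths of 685 and 806 bases for B and 947 and 675 bases for C. At 30 to 99 reads the order was the same with smaller gaps, 95.2% in WRR and 93.0% in XH for B and 88.4% in WRR and 93.7% in XH for C. At 1 to 9 reads it was turned round, with 27.1% in WRR and 38.8% in XH for B and 39.4% in WRR and 26.4% in XH for C. From 100 reads on, series B had 98.2% in both libraries and series C 95.2% in WRR and 98.3% in XH. The order of the libraries within a series thus depended on the number of reads compared.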

How the data were processed

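Per the labels' protocols, equal amounts of breast muscle RNA from 4 hens per strain were mixed, depleted of ribosomal RNA and sequenced as 1 dUTP library. The submitters' processing notes name the build galGal4, TopHat2 2.0.8 and Cufflinks 2.0.2 without saying what each was used for. Nothing in the sources used here tells how transcripts were assembled, merged or called non-coding. Per the file headers, the deposited counts are of uniquely mapped reads. The authors' RPKM values are scaled to the totals in the headers; what the totals count is not stated. Recomputed from reads, length and total, 21449 of 21449 RPKM values of WRR and 21697 of 21697 of XH came out within 0.001% of the deposited ones. The deposited coverage was read as the percent of the length with reads, a meaning that the file headers do not state. A dash was taken as 0 reads, since the smallest listed count was 1.

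Intervals for 2582 of the chromosome's transcripts had an end minus start equal to the length, so starts were read as 0-based and 1 was added to each for printing. Log2 ratios used a pseudocount of 0.1 RPKM and a filter of 0.5 RPKM in the higher library. Bins were 1 Mb by midpoint. Named transcripts were the 8 highest mean levels, the 8 highest and 8 lowest log2 ratios read in both libraries, the 4 dashes of each library with the most reads in the other, the 5 highest and 5 lowest ratios at 100 or more reads in each, the longest transcript, the longest interval and those within 50 kb of the most abundant. Other transcripts named within stretches were chosen after their values were seen. Python 3.11.15 with pandas 2.3.3 and scipy 1.17.1 was used, and edgeR 4.0.16 for TMM factors alone. The calculations were tested on simulated data. The chromosome, the rules and the lists were chosen with earlier results of these data known. Alternatives were other pseudocounts, filters, scalings, bin sizes and each numbering series. No genome or annotation of this build was used, so no sequence is printed and no neighbouring gene assigned.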

Additional observations from a re-analysis of the deposited data

How the results depend on the processing

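No paired analysis was possible because there is 1 library of each strain, nor could a library be left out. The scaling decided the balance of directions. The count past 2-fold toward WRR, 169 with deposited values, was 100 with a pseudocount of 1 RPKM, 379 with TMM, 395 with size factors, 413 when centred on all transcripts and 384 after quantile normalization. In series A it was 7 and in series C 3. The count toward XH, 1414, was 701 with TMM, 674 with size factors, 642 centred, 613 after quantile normalization, 138 in series A and 141 in series B. The median of -1.11 was -0.87 with a pseudocount of 1 RPKM, -0.80 scaled to listed reads, -0.27 with TMM, -0.23 with size factors, -0.20 centred and -0.29 after quantile normalization, and -0.68, -0.070 and -1.72 in series A, B and C. Against the rest of the table the difference stayed between -0.24 and -0.16 under all these scalings, pseudocounts and filters, and between -0.15 and -0.10 within series. Scaling to listed reads, TMM, size factors and centring move all log2 ratios by nearly the same amount, so they could hardly change that difference. Quantile normalization, pseudocounts and filters could, with -0.20 after quantile normalization and -0.16 with a pseudocount of 1 RPKM. Bins with a median above 0, 3 of 94, were 24 with TMM, 30 with size factors, 32 centred and 24 after quantile normalization; they were 0 of 13 in series A, 8 of 22 in B, 1 of 51 in C and 0 of 68 at 2 Mb. The densest bin had 28 transcripts in series A and 23 in B, against 85. The correlation of neighbours, 0.19, was 0.51 over pairs of the same series pooled. Chosen after the data had been seen, the correlation over those pairs with the series medians taken out was 0.26, and the fold of summed reads was 0.539 without the 2 most abundant transcripts and 0.670, 0.642 and 0.351 in series A, B and C, that of the rest of the table, 0.826, was 0.667 without its own 2 and 0.669 without chromosome 1, and the 2.00-fold of bin 108 turned to 0.499 without that pair. With gaps of 5 and 20 kb there were 61 and 77 stretches in place of 68. Of the 42 transcripts named by rule, 3 changed sign under a scaling, none of them past 2-fold, and 5 of the 21 past 2-fold toward XH fell within 2-fold when centred. Scaling to listed reads and centring shifted log2 ratios by a median of 0.31 and 0.92, too little to turn one past 2-fold. Of the scalings applied to these transcripts, only quantile normalization could have done so. The causes were not tested. A median of 19 reads in WRR leaves most single ratios wide.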

Other observations

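Coverage and reads did not always go together. Among the 229 transcripts with at least 100 reads in each library, 9 differed by at least 20 percentage points in the share of their length covered, 4 with more in WRR and 5 with more in XH. The gapped 3751-base transcript spanning 110982273 to 111003211 had 3907 reads in WRR over 98.8% of its length and 2660 reads in XH over 76.5%. It alone held 62.0% of the WRR reads of bin 111 and 40.6% of the XH reads. The 253-base transcript at 19564132 to 19564384 and a gapped transcript of 709 bases at 19596982 to 19598812 lie within 40 kb of each other, and both were more fully covered in WRR, by 41.1 and 22.4 points. In the other direction, the 4619-base transcript at 76175210 to 76179828 had 107 reads in WRR over 61.4% of its length and 191 reads in XH over 92.6%. Which parts of a transcript were covered cannot be read from the table.

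Of 33 genes in lists of myogenesis, the growth axis and energy metabolism, 31 were matched by symbol in the RefSeq table of another build (GRCg7b), and 6 of them lie on chromosome 2 there. These are IGF2BP3, an RNA-binding protein, IGFBP1 and IGFBP3, which bind insulin-like growth factors, INHBA, a subunit of activin, PDK4, which inhibits pyruvate dehydrogenase, and PFKP, a phosphofructokinase of glycolysis. Of the 12 myogenesis genes in the lists, 11 were matched, and none of these lies on chromosome 2 there. The other, SIX4, was not matched, so its chromosome was not determined. Since the builds differ, no transcript was placed beside any of these genes.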
